A study of Mus musculus with 4 samples.

Results

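A set of 9 genes often used to describe gamma-delta T cells were followed in DN3 thymocytes of 2 genotypes: the transcription factor genes Sox13, Sox4, Maf and Etv5, the kinase gene Blk, the scavenger receptor genes Cd163l1 and 5830411N06Rik, and the cytokine receptor genes Il17re and Il23r. They were picked by name, with earlier results of these data known, and all 9 had an entry among the 23285 genes with values. The tested cells carried the Gata3(g/g) genotype, which the labels call a hypomorph (an allele with reduced function), and the comparison cells were wild type (WT), both on C57BL/6. Fetal liver cells of either genotype had been given to irradiated mice, and thymocytes at the DN3 stage were sorted for RNA sequencing 16 weeks later. Each genotype had 2 libraries. By their sequence identifiers, both replicates 1 came from one sequencing run (run 1) and both replicates 2 from another (run 2). The labels say neither whether the replicates came from separate recipients nor whether cells of the irradiated hosts were kept out of the sort, so p-values measure only the spread between these libraries.

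DN3 thymocytes are CD4-negative, CD8-negative precursors at the stage where alpha-beta and gamma-delta T cell fates part. Cells of the gamma-delta lineage that go on to make interleukin 17 (IL-17) depend in mice on SOX13, SOX4 and c-MAF (the product of Maf), with ETV5 and the SRC-family kinase BLK needed in some of these subsets. The scavenger receptors encoded by Cd163l1 (Scart1) and 5830411N06Rik (Scart2), both named so in the RefSeq gene table, are surface proteins found on many of these cells, and the IL-23 receptor drives their cytokine production. The zinc-finger factor GATA3 is needed by early T cell precursors, and the comparison addresses what changes at the DN3 stage when the Gata3 gene is altered.

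The 9 genes did not move together. With the sequencing run held as a block, Cd163l1, 5830411N06Rik, Maf and Blk were higher in Gata3(g/g) than in WT cells, by 5.15, 4.63, 4.64 and 3.23 times in mean FPKM (fragments per kilobase of transcript, scaled to sequencing depth). Sox13 moved the other way and was 3.53 times as abundant in WT as in Gata3(g/g) cells. Sox4, of the same transcription factor family as Sox13, measured 8.99 ± 2.21 FPKM in Gata3(g/g) and 8.65 ± 1.52 FPKM in WT cells (SD, n = 2 each). Etv5, Il17re and Il23r lay at or under about 1 FPKM and were below the filter of the test, a mean of at least 1 FPKM over the 4 libraries. "Rose" and "fell" below mean an adjusted p under 0.05 in edgeR's quasi-likelihood test with the run as a block, higher or lower in Gata3(g/g). Of the 6 genes tested, which were not chosen independently of these results, 4 rose and 1 fell, where 6.90% of all 10224 tested genes did either (399 rose, 3.90%, and 306 fell, 2.99%). Scaled by library totals instead of TMM factors (trimmed mean of M values), 464 genes rose (4.54%), which is 68.8% of 674 calls against 56.6% of 705, and the same 5 of the 6 were called. Without the block, edgeR called 0 of the 10224 genes and none of the 6, with 393 genes at an unadjusted p under 0.05 (3.84%). DESeq2 without the block called 88 genes (0.861%), among them 4 of the 6. With the block, DESeq2 called 417 genes (4.08%) with 5 of the 6, and limma on log2(FPKM + 1) called 18 (0.176%) with 2 of the 6. The median log2 fold change of the 6 was 2.02 and that of all tested genes 0.01; Maf passed the filter only through its level in Gata3(g/g) cells, so neither the count nor the median stands for all 9.

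The libraries held from 14331705 to 26901913 fragments assigned to genes. All 13 DN3 markers listed were at or above 1 FPKM in every library. Of these, 2 rose and none fell, where 3.90% of all tested genes rose and 2.99% fell. The median log2 fold change of the 13 was −0.08, against 0.01 over all tested genes. Cd3d did not pass but lay the other way, with 203 and 261 FPKM in Gata3(g/g) and 313 and 294 FPKM in WT (−0.40, edgeR with the block, adjusted p = 0.158). Il2ra, which encodes CD25, had 569 and 492 FPKM in Gata3(g/g) and 277 and 261 FPKM in WT cells (log2 fold change 0.98 ± 0.181 SE, edgeR with the block, adjusted p = 0.00262). Dtx1 had 41.7 and 33 FPKM in Gata3(g/g) and 19.3 and 18.6 FPKM in WT (0.98 ± 0.128 SE, adjusted p = 0.000109). Gata3 itself rose in the libraries labelled as a hypomorph. Its level was 120 and 96.1 FPKM in Gata3(g/g) and 62.4 and 58.5 FPKM in WT (log2 fold change 0.83 ± 0.146 SE, edgeR adjusted p = 0.00165 with the block and 0.965 without it). The level over a whole gene does not show how much working protein was made, and "Gata3(g/g)" below is the label's name for these libraries. In bulk RNA, fewer cells of a type and less RNA per cell cannot be told apart.

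**Figure D1:**
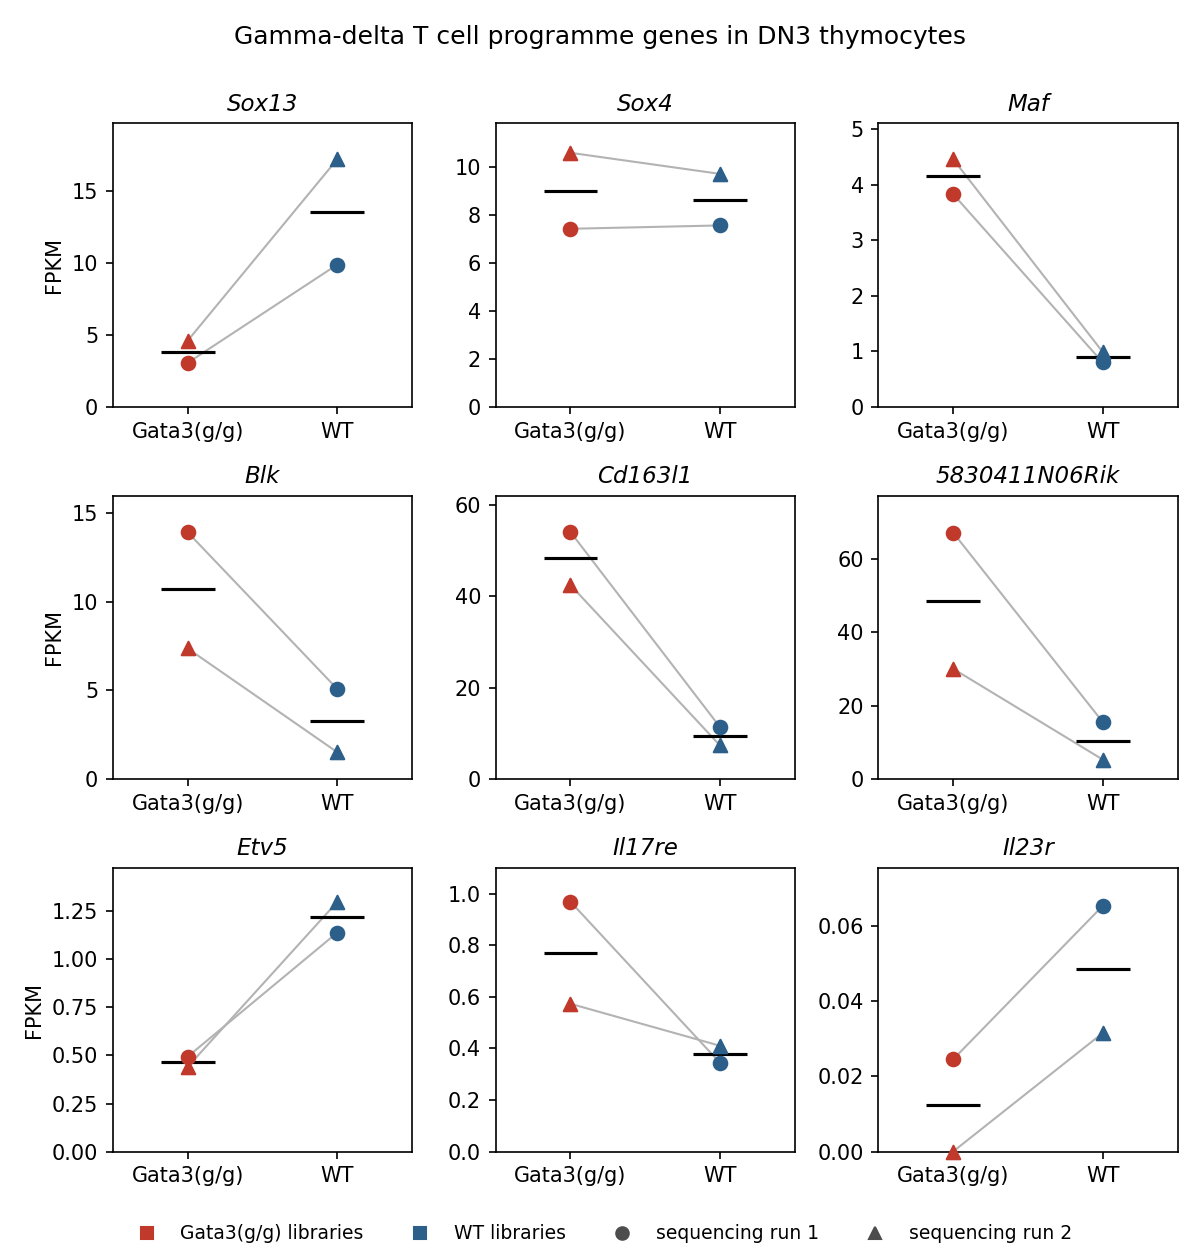
FPKM of each of the 9 genes (linear axes from 0, scaled per gene), Gata3(g/g) left of WT, 1 point per library, with the marker shape giving the sequencing run, grey lines joining libraries of a run and the short black line the mean of 2 libraries. The genotypes lie apart for every gene but Sox4 (for Il23r on at most 6 fragments a library), and the 4 Sox4 libraries lie between 7.43 and 10.6 FPKM.

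The levels fell in another order in each genotype. In Gata3(g/g) cells 5830411N06Rik (48.6 ± 26.2 FPKM) and Cd163l1 (48.3 ± 8.20 FPKM) stood at the top and differed by less than their spread. Blk (10.7 ± 4.65 FPKM) and Sox4 (8.99 ± 2.21 FPKM) came next, also within each other's spread, and then Maf (4.15 ± 0.444 FPKM) and Sox13 (3.83 ± 1.09 FPKM). In WT cells Sox13 had the highest mean (13.5 ± 5.14 FPKM), ahead of 5830411N06Rik (10.5 ± 7.26 FPKM), Cd163l1 (9.37 ± 2.81 FPKM) and Sox4 (8.65 ± 1.52 FPKM), 4 neighbours that were not separated by their spread. Blk (3.30 ± 2.51 FPKM), Etv5 (1.22 ± 0.112 FPKM) and Maf (0.894 ± 0.133 FPKM) followed (SD, n = 2 throughout).

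Among the transcription factors, Sox13 fell. SOX13 is a high-mobility-group protein of the SOX D group that binds TCF1 and is among the earliest markers of thymocytes with a gamma-delta bias in mice. It lies on mm10 chromosome 1 from 133382300 to 133424212. The Gata3(g/g) libraries had 3.06 and 4.60 FPKM (542 and 547 fragments), against 9.88 and 17.2 FPKM in the WT libraries (1316 and 1579 fragments). Both Gata3(g/g) libraries were below both WT libraries, and in both genotypes the library of run 2 was the higher. The Gata3(g/g) over WT log2 fold change was −1.79 ± 0.143 (SE; edgeR with the block, adjusted p = 4.78e-07; 0.663 without it). Within run 1 the log2 CPM (counts scaled to library size) of Gata3(g/g) minus WT was −1.67 and within run 2 it was −1.90. Of 10224 tested genes, Sox13 was number 53 counted from the most negative log2 fold change. In limma with the block its adjusted p was 0.053. Within each library, Sox13 exceeded the FPKM of 20.5% and 29.3% of tested genes in Gata3(g/g) and of 52.4% and 71.0% in WT.

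Sox4 did not pass the test. SOX4, a SOX C protein, is needed in mice for the development of gamma-delta cells that make IL-17 and acts in other lymphoid precursors too. Its levels were 7.43 and 10.6 FPKM in Gata3(g/g) and 7.57 and 9.72 FPKM in WT. The ranges overlapped, and in both genotypes the library of run 2 was the higher. On the log2 scale the change was 0.05 ± 0.137 (SE; edgeR adjusted p = 0.881 with the block). Run 1 alone gave −0.01 and run 2 alone 0.11, and 84.7% of tested genes had a larger change in size. The ratio of Sox4 to Sox13 FPKM was therefore 2.43 and 2.30 in Gata3(g/g) libraries and 0.766 and 0.567 in WT libraries. In the GENCODE M21 transcripts, 54.1% of the 50-base stretches of Sox4 also occur in Gm26735, an antisense gene, and without a statement on strand its fragments cannot be told from those of Sox4.

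Of the rest of the SOX C and D groups, Sox12 alone passed the filter. It had 1.98 and 2.73 FPKM in Gata3(g/g) and 2.50 and 4.40 FPKM in WT (log2 fold change −0.51, edgeR adjusted p = 0.0831 with the block). Sox5, the closest relative of Sox13 in this list along with Sox6, was low, at 0.186 and 0.272 FPKM in Gata3(g/g) and 0.0549 and 0.158 FPKM in WT. Sox6 and Sox11 stayed under 0.17 FPKM in every library.

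Maf rose. It encodes c-MAF, a basic leucine zipper factor of the large MAF group that mouse gamma-delta cells need to make IL-17. Maf (mm10 chromosome 8, 115703253 to 115706894) had 3.83 and 4.46 FPKM in Gata3(g/g), against 0.80 and 0.988 FPKM in WT, from 701 and 548 fragments against 110 and 94. All Gata3(g/g) values lay well above all WT values, and both runs gave nearly the same gap. The log2 fold change was 2.22 ± 0.198 (SE; edgeR with the block, adjusted p = 1.73e-06; 0.275 without it), and it was 2.25 within run 1 and 2.15 within run 2. Maf ranked number 33 from the most positive fold change. The adjusted p by limma with the block was 0.0603. With Sox13 falling and Maf rising, the ratio of Maf to Sox13 FPKM stood at 1.25 and 0.970 in Gata3(g/g) and at 0.0809 and 0.0576 in WT libraries. Of the 50-base stretches of Maf, 4.64% are shared with other genes, mostly with the antisense gene Gm15655.

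Since macrophages also use Maf, myeloid and dendritic markers were read beside it. Their summed level over 10 genes ranged from 23.1 to 58.0 FPKM in Gata3(g/g) and from 14.4 to 44.2 FPKM in WT libraries, and 7 of the 10 were under 1 FPKM in all 4. The overlap of these sums came from S100a8, at 40.2 FPKM in Gata3(g/g) and 33.3 FPKM in WT in run 2 and at 0 FPKM in Gata3(g/g) and 0.66 FPKM in WT in run 1. Lyz2 (lysozyme) rose, with 18.7 and 13.6 FPKM in Gata3(g/g) and 9.93 and 4.20 FPKM in WT (log2 fold change 1.27 ± 0.198 SE, edgeR with the block, adjusted p = 0.00061). Fitted with no block, Lyz2 stood at 1.92 once WT replicate 1 was dropped and at 0.71 once WT replicate 2 was dropped. Some low markers were also higher in both Gata3(g/g) libraries. Itgax had 0.547 and 0.447 FPKM in Gata3(g/g) and 0.151 and 0.142 FPKM in WT (1.76 ± 0.439 SE in the unfiltered edgeR fit with the block, adjusted p = 0.00267). Itgam had 0.147 and 0.288 FPKM in Gata3(g/g) and 0.0784 and 0.0971 FPKM in WT (unfiltered adjusted p = 0.511), and Csf1r had 0.0871 and 0.152 FPKM in Gata3(g/g) and 0.0818 and 0.0394 FPKM in WT (0.999). Other markers went the other way. Cebpa had 0.223 and 0.115 FPKM in Gata3(g/g) and 0.337 and 0.237 FPKM in WT. Mpo had 0.0638 and 0.0714 FPKM in Gata3(g/g) and 0.0849 and 0.123 FPKM in WT. Cd68 had 3.27 and 2.96 FPKM in Gata3(g/g) and 2.96 and 6.02 FPKM in WT (−0.43, edgeR with the block, adjusted p = 0.485). The part of such cells in the Maf values was not tested.

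Etv5 was lower in both Gata3(g/g) libraries. ETV5 is an ETS factor of the PEA3 group, required in mice for a subset of IL-17-producing gamma-delta cells. Its levels were 0.494 and 0.441 FPKM (95 and 57 fragments) in Gata3(g/g), against 1.14 and 1.30 FPKM (165 and 130 fragments) in WT. The genotypes did not overlap, and the replicates of each lay close together. In an edgeR fit with the block and no filter (21355 genes, 988 called, 4.63%, of which 440 lower, 2.06%) its log2 fold change was −1.37 ± 0.269 (SE, adjusted p = 2.72e-05; 0.549 without the block). P-values of the unfiltered fit are not on the scale of the filtered one. For Sox13 with the block, the unadjusted edgeR p was 1.97e-28 without the filter and 8.88e-10 with it. The within-run differences of Etv5 were −1.17 and −1.54. In the authors' deposited table Etv5 had a log2 fold change of −1.38 with a q-value of 0.0415, adjusted over a set of tests that is not known. Shared sequence limits the value: 24.5% of its 50-base stretches recur in Gm4798, which was not analysed here. Etv1 and Etv4, the other PEA3 genes, were under 0.25 FPKM in every library.

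Blk rose, and its level also differed between the runs. BLK is a SRC-family tyrosine kinase of B cells that is also made in gamma-delta cells of the IL-17 kind in mice. Blk (mm10 chromosome 14, 63372837 to 63417187) had 13.9 and 7.36 FPKM in Gata3(g/g) and 5.08 and 1.52 FPKM in WT. The lower Gata3(g/g) library stood just above the higher WT library, since both libraries of run 2 were low. Its log2 CPM in run 2 minus run 1 was −0.92 in Gata3(g/g) and −1.70 in WT. Its fitted log2 fold change was 1.82 ± 0.184 (SE; edgeR with the block, adjusted p = 7.28e-06), and within the runs it was 1.47 and 2.25. The fit with no block gave 1.70 (adjusted p = 1), and it moved to 2.78 without WT replicate 1 and to 1.09 without WT replicate 2. By limma with the block the adjusted p was 0.0635.

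The B cell lineage was read beside Blk. The 9 B cell markers summed to between 34.5 and 40.6 FPKM in Gata3(g/g) and between 32.0 and 32.1 FPKM in WT libraries, most of it Cd79b, at 37.0 and 29.6 FPKM in Gata3(g/g) and 29.8 and 29.1 FPKM in WT. Pax5, the factor that commits B cells, was listed at 0 in all libraries but Gata3(g/g) replicate 2 (0.0274 FPKM). Vpreb1, a surrogate light chain, had 2.21 and 2.16 FPKM in Gata3(g/g) and 1.30 and 0.979 FPKM in WT (log2 fold change 0.93, edgeR with the block, adjusted p = 0.267). Blnk, an adaptor of B cell receptor signalling, had 1.08 and 0.793 FPKM in Gata3(g/g) and 0.392 and 0.436 FPKM in WT (1.17 in the unfiltered fit, adjusted p = 0.0815). Of the 9 markers, 5 were under 1 FPKM in all 4 libraries, and their part in the Blk values was not tested.

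Blk was the one SRC-family kinase of 5 tested to pass. Lck, the main kinase of this family in thymocytes, had 294 and 215 FPKM in Gata3(g/g) and 245 and 175 FPKM in WT (log2 fold change 0.28, edgeR with the block, adjusted p = 0.333). Fyn had 16.4 and 12.4 FPKM in Gata3(g/g) and 11.6 and 10.1 FPKM in WT (0.41, adjusted p = 0.0839). Lyn (0.34, adjusted p = 0.477) and Fgr (0.52, adjusted p = 0.286) did not pass either. As a share of Lck FPKM, Blk reached 0.0475 and 0.0342 in Gata3(g/g) and 0.0207 and 0.0087 in WT libraries.

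**Figure D2:**
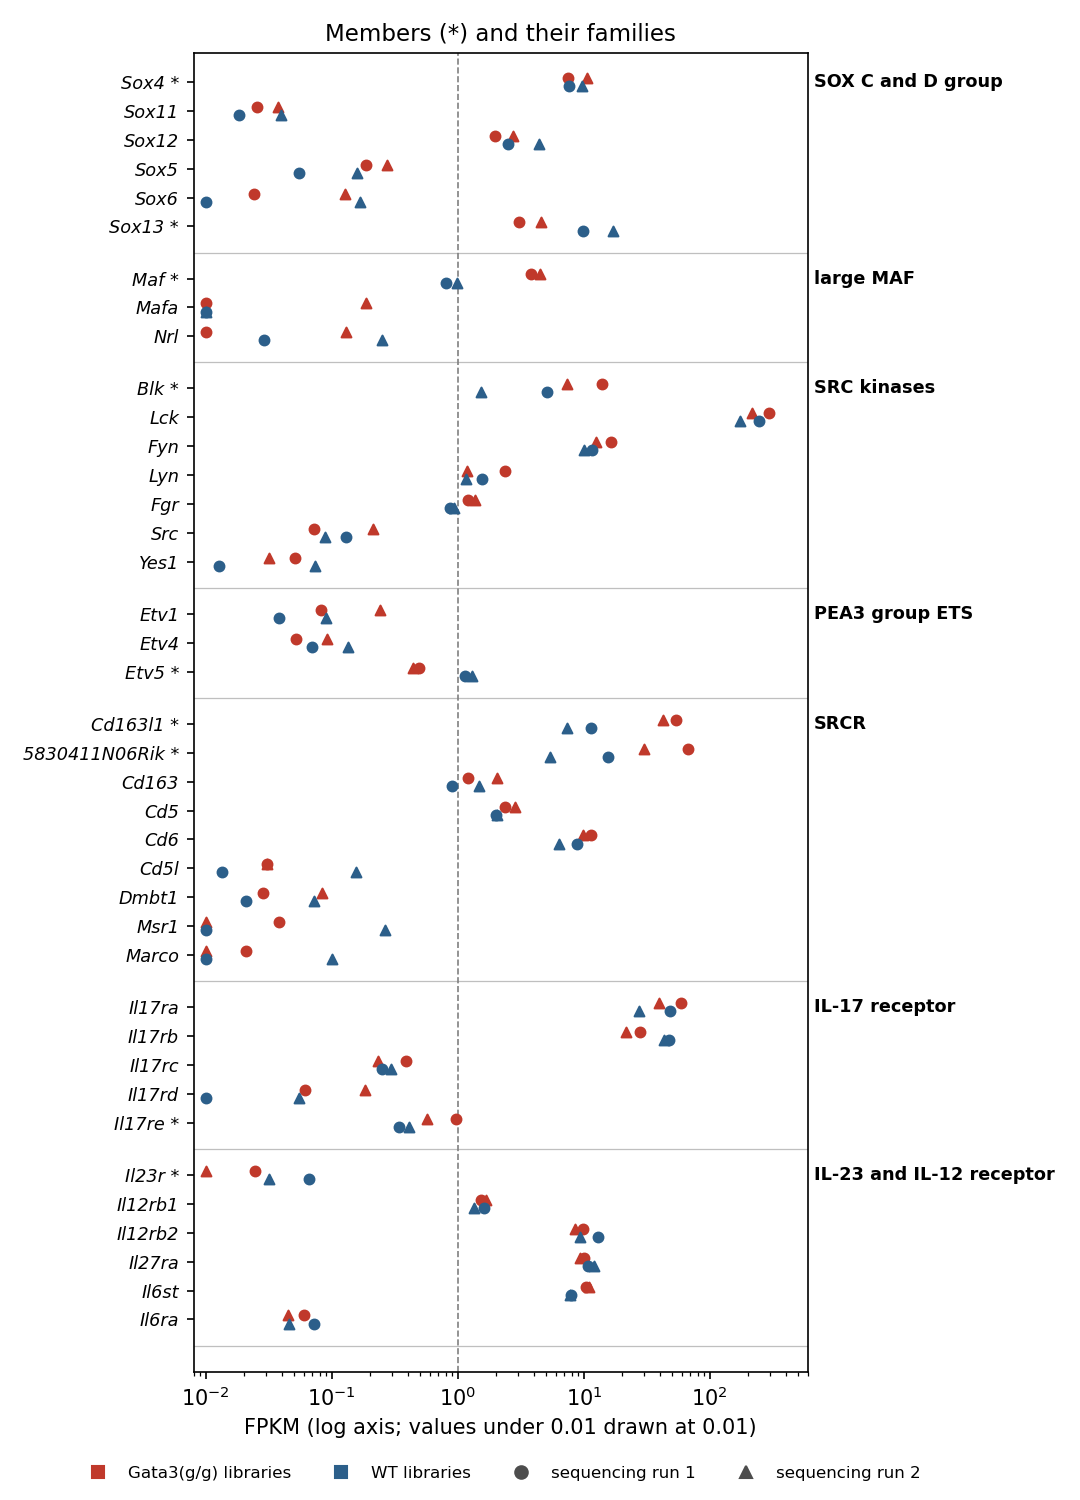
FPKM (log axis, values under 0.01 drawn at 0.01) of genes in the families of the 9 genes, Gata3(g/g) above WT for each gene, 1 point per library with the shape giving the run. Sox13, Maf, Blk, Cd163l1 and 5830411N06Rik show wide gaps between genotypes, while Sox4, Lck and Il12rb1 lie together.

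Cd163l1 and 5830411N06Rik rose and had the largest fitted log2 fold changes of the 6 tested genes. They are neighbours on mm10 chromosome 7, from 140218267 to 140231145 and from 140247301 to 140299791, with 16155 bases between them. Both encode scavenger receptors with cysteine-rich SRCR domains that mark gamma-delta T cells in mice. Because the 2 genes lie side by side and rose together, their promoters are shown, as RefSeq places them on GRCm38.p6: chr7:140218017-140218316 for Cd163l1 and chr7:140247051-140247350 for 5830411N06Rik, both on the plus strand, 250 bases before to 50 bases after the start site. Capitals mark a match, on either strand, to 1 of the 4 forms of the GATA motif that were searched: AGATAA and AGATAG, and also TGATAA and TGATAG.
Cd163l1: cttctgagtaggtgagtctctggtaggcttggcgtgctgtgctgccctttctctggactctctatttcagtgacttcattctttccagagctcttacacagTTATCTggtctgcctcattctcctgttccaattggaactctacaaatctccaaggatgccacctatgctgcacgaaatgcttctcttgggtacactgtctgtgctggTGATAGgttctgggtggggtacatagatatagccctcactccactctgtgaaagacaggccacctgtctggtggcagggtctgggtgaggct
5830411N06Rik: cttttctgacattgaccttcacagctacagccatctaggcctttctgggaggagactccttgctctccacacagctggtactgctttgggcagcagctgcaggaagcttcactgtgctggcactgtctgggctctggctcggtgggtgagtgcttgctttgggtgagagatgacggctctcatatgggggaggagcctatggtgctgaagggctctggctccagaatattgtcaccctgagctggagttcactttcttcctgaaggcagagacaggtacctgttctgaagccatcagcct
The Cd163l1 window holds 2 matches, at −149 and −42 from the start site, and the 5830411N06Rik window holds none. Of the 9 genes, 7 had a window in the RefSeq table, and the windows of Sox13, Sox4, Etv5, Il17re and Il23r hold none either. Of all 32851 windows, 29.8% hold at least 1 match, and of the first windows of 7303 tested genes 17.7% do. A match is a run of letters and not a site of binding.

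Cd163l1 had 54.1 and 42.5 FPKM in Gata3(g/g), against 11.4 and 7.38 FPKM in WT. Its fragments numbered 9365 and 4940 in Gata3(g/g) and 1478 and 664 in WT. The genotypes were far apart in both runs, and the library of run 2 was the lower in each. A log2 fold change of 2.39 ± 0.131 (SE; edgeR with the block, adjusted p = 6.03e-09; 0.275 without it) was fitted, and run 1 alone gave 2.27 and run 2 alone 2.51. Cd163l1 ranked number 27 from the most positive change, and 0.606% of tested genes had a larger change in size. It stood above 90.3% and 87.9% of tested genes in FPKM in Gata3(g/g), and above 56.8% and 45.2% in WT. In limma with the block its adjusted p was 0.0226.

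The values of 5830411N06Rik were 67.2 and 30.1 FPKM in Gata3(g/g), against 15.6 and 5.36 FPKM in WT. Again the genotypes did not overlap, but the runs differed by more than for Cd163l1: run 2 minus run 1 on the log2 CPM scale was −1.16 in Gata3(g/g) and −1.51 in WT, where Cd163l1 had −0.34 and −0.59. The log2 fold change was 2.29 ± 0.136 (SE; edgeR with the block, adjusted p = 1.09e-08), against 2.12 within run 1 alone and 2.47 within run 2 alone. The fit with no block gave 2.22 (adjusted p = 1), and leaving out 1 library at a time it ranged from 1.53 without Gata3(g/g) replicate 1 to 3.15 without WT replicate 1. In limma with the block its adjusted p was 0.0265.

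The ratio of Cd163l1 to 5830411N06Rik FPKM followed the run and not the genotype. It was 0.805 in Gata3(g/g) and 0.727 in WT in run 1, and 1.41 in Gata3(g/g) and 1.38 in WT in run 2. The 2 genes shared no exact stretch of 50 bases: none of the 4072 stretches in Cd163l1 transcripts and none of the 5826 in 5830411N06Rik transcripts occur in another gene of GENCODE M21. The longest identical stretch between them is 23 bases. The read length is not known, and whether fragments were assigned to the wrong gene of the 2 was not tested. Among other SRCR genes of T cells, Cd6 rose (11.4 and 9.87 FPKM in Gata3(g/g), 8.79 and 6.31 FPKM in WT; log2 fold change 0.52 ± 0.140 SE, edgeR with the block, adjusted p = 0.0346), a call lost with the block in DESeq2 (adjusted p = 0.159) and limma (0.234). The Cd6 value fitted with no block was 0.30 once WT replicate 2 was dropped and 0.73 once WT replicate 1 was dropped. Cd5 had 2.38 and 2.82 FPKM in Gata3(g/g) and 2.02 and 2.06 FPKM in WT (0.35, adjusted p = 0.466). Cd163, the macrophage scavenger receptor, had 1.20 and 2.05 FPKM in Gata3(g/g) and 0.900 and 1.46 FPKM in WT (0.47, adjusted p = 0.243).

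**Figure D3:**
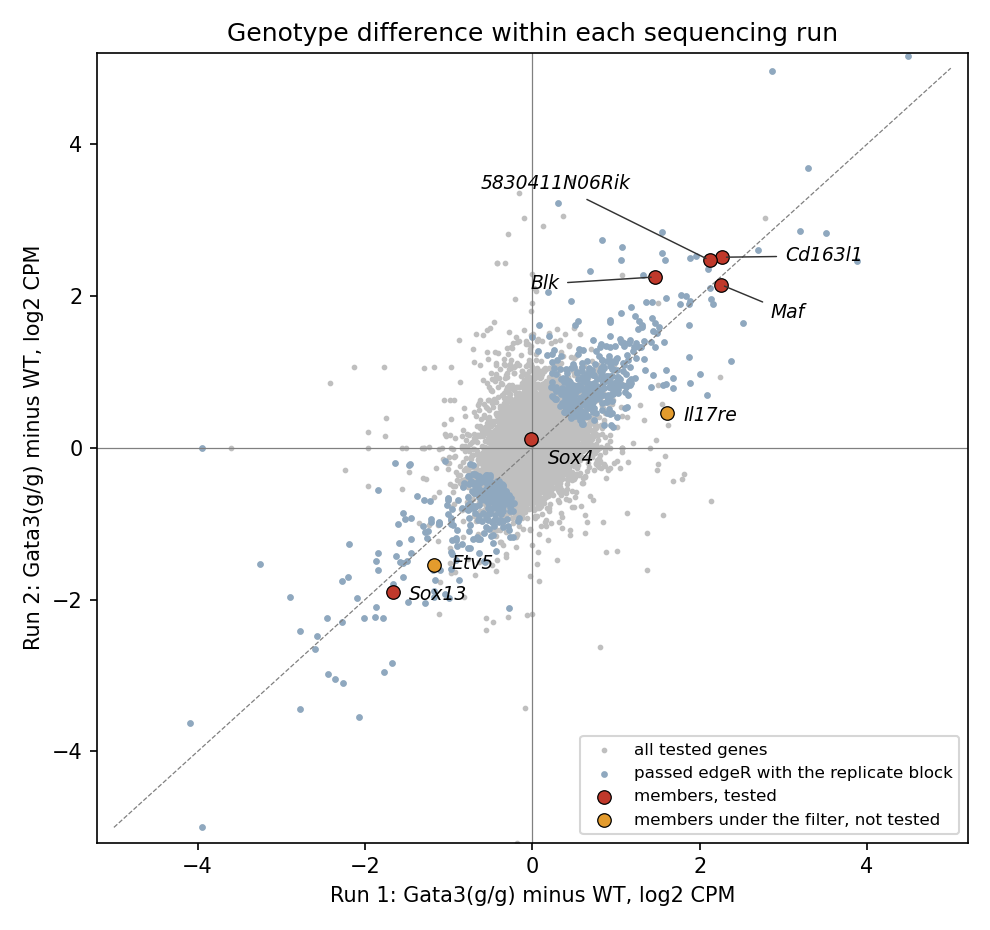
Difference in log2 CPM of Gata3(g/g) minus WT in run 1 (x axis) against run 2 (y axis), 1 point per gene, with the dashed line marking equal differences, Il23r not drawn and 7 tested genes outside the axes. Cd163l1, 5830411N06Rik, Maf and Blk lie above 1 in both runs, Sox13 and Etv5 lie below −1 in both, and Sox4 lies near 0.

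A change of at least 1 on the log2 CPM scale in both runs was seen upward in 4 of the 6 tested genes and in 0.782% of all tested genes, and downward in Sox13 and in 0.548%. For 5 of the 6, every Gata3(g/g) library lay on one side of every WT library, as in 29.0% of all tested genes (14.2% higher and 14.8% lower in Gata3(g/g)). The genes were picked with earlier results of these data known. Maf passed the filter only through its level in Gata3(g/g) cells, and the filter left out Etv5, at −1.17 and −1.54 within the runs. These counts therefore describe the 6 genes and are no test of the set. With 2 libraries against 2, an exact two-sided permutation test cannot go below p = 0.333 for any one gene. In the authors' deposited table the same 5 genes had q-values of 0.000264, and Sox4 had 0.891, where 456 of the 11123 genes tested in that table (4.1%) had a q-value under 0.05. The 5 genes shared a Cuffdiff p-value of 5e-05 there. With 456 of 11123 genes under 0.05, these q-values are smaller than an adjustment over those genes alone would give. The set of tests they were adjusted over was not given in the sources used here.

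The cytokine receptor genes were low, and Il23r was close to the limit of detection. Il17re encodes the subunit that binds IL-17C in pairing with IL-17RA, and had 0.969 and 0.573 FPKM (138 and 56 fragments) in Gata3(g/g) and 0.344 and 0.410 FPKM (33 and 31 fragments) in WT. The genotypes did not overlap, yet the gap was wide in run 1 (1.61 on the log2 CPM scale) and narrow in run 2 (0.46). In the unfiltered edgeR fit with the block the log2 fold change was 1.09 ± 0.372 (SE, adjusted p = 0.0649). The authors' deposited table gives a q-value of 0.226, adjusted over a set of tests that is not known. Il23r, the receptor chain specific to IL-23, had 3 and 0 fragments in Gata3(g/g) and 6 and 2 in WT. The sums of 3 and 8 fragments give a Gata3(g/g) to WT ratio of 0.296 per fragment sequenced, with a 95% interval of 0.0506 to 1.23 that covers counting error only. No difference in Il23r was detectable at this depth.

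The other chains of these receptor families ranged widely in level. Il17ra, the chain shared by IL-17 receptors, had 59.0 and 39.4 FPKM in Gata3(g/g) and 48.4 and 27.5 FPKM in WT (log2 fold change 0.40, edgeR with the block, adjusted p = 0.0692). Il17rb, which binds IL-25, fell, with 27.9 and 21.7 FPKM in Gata3(g/g) against 47.2 and 43.7 FPKM in WT (−0.88 ± 0.129 SE, adjusted p = 0.000327). Il12rb1, which pairs with the Il23r product, had 1.54 and 1.66 FPKM in Gata3(g/g) and 1.60 and 1.35 FPKM in WT (0.12, adjusted p = 0.846). Il17rc, Il17rd and Il6ra stayed under 0.4 FPKM in each library. Of these, Il17rd had 0.0614 and 0.182 FPKM in Gata3(g/g) (26 and 52 fragments) and 0.00314 and 0.0544 FPKM in WT (1 and 12 fragments). The lower Gata3(g/g) library was thus close to the higher WT library. In the unfiltered edgeR fit with the block its log2 fold change was 2.53 ± 0.859 (SE, adjusted p = 0.0575). Il6st, the signalling chain gp130, rose, with 10.5 and 11 FPKM in Gata3(g/g) and 7.89 and 7.77 FPKM in WT (0.46 ± 0.129 SE, adjusted p = 0.0399), a call lost with the block in DESeq2 (adjusted p = 0.131) and limma (0.232).

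For each tested gene, the 3 genes of most similar profile over the 4 libraries were found by the Euclidean distance of log2 CPM centred on its mean. Sox13 lay nearest to Igf1r, the insulin-like growth factor 1 receptor, at a distance of 0.0937; Igf1r had 1.42 and 2.27 FPKM in Gata3(g/g) and 4.52 and 7.87 FPKM in WT. Mpp4 (0.228) and Ms4a6d (0.320) were the next. Cd163l1 lay nearest to Itga9, an integrin chain (0.268), and to Scin, an actin-severing protein (0.309), which had 64.2 and 47.5 FPKM in Gata3(g/g) and 14.9 and 11 FPKM in WT; the factor gene Mef2c followed (0.440). Maf lay nearest to 9030619P08Rik (0.190), Appl2 (0.396) and Myof (0.401). Blk and 5830411N06Rik were among each other's 3 nearest genes (0.484), and both also had Serpine2 and Gsn in their list. The flat profile of Sox4 had Usp49 (0.0202), Lrch1 (0.0222) and Btf3l4 (0.0242) beside it. With 4 libraries these distances describe the profiles and carry no test.

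The wider gamma-delta genes gave a mixed picture. Their 3 lists were chosen with earlier results of these data known, so the list counts and medians below are descriptions and no tests. Of 22 other regulators, 14 were tested, and Id2 rose while Lef1 and Nr4a1 fell, 3 of 14 where 6.90% of all tested genes did either (median log2 fold change 0.07 in the list and 0.01 over all tested genes). Lef1, a TCF-family partner of early T cell factors, had 28.4 and 26.7 FPKM in Gata3(g/g), against 53.8 and 61.4 FPKM in WT (−1.06 ± 0.127 SE, edgeR with the block, adjusted p = 4.76e-05). Nr4a1, an early gene of T cell receptor signalling, had 6.14 and 2.18 FPKM in Gata3(g/g) and 15.2 and 4.72 FPKM in WT (−1.21 ± 0.153 SE, adjusted p = 7.82e-05), so its genotypes overlapped across runs. Fitted with no block, its log2 fold change was −0.21 once WT replicate 1 was dropped and −2.17 once Gata3(g/g) replicate 1 was dropped. Id2, an inhibitor of E proteins, had 19.7 and 11.8 FPKM in Gata3(g/g) and 17.5 and 4.18 FPKM in WT (0.77 ± 0.224 SE, adjusted p = 0.0487), and its call was lost in limma (adjusted p = 0.339) and DESeq2 (0.118) with the block. The log2 fold change of Id2 was −0.13 without WT replicate 2. Tcf7 (819 and 795 FPKM in Gata3(g/g), 810 and 1143 FPKM in WT), Runx1 and Bcl11b did not pass (adjusted p from 0.505 to 0.781).

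Of 22 receptors and effectors of IL-17-type gamma-delta cells, 10 were tested, 4 rose and none fell, where 3.90% of all tested genes rose and 2.99% fell (median log2 fold change 0.56 in the list and 0.01 over all tested genes). The list was not chosen independently of these results. Il7r, the IL-7 receptor chain, had 47.8 and 51.5 FPKM in Gata3(g/g) and 28.5 and 32.8 FPKM in WT (0.70 ± 0.123 SE, edgeR with the block, adjusted p = 0.00171). Cd44, an adhesion receptor of activated and of earlier precursor cells, had 2.42 and 3.12 FPKM in Gata3(g/g) and 1.16 and 1.08 FPKM in WT (1.23 ± 0.197 SE, adjusted p = 0.000709). Serpinb1a, a protease inhibitor, had 32.2 and 31.4 FPKM in Gata3(g/g) and 13.8 and 13.7 FPKM in WT (1.21 ± 0.135 SE, adjusted p = 2.08e-05). Gpr183, an oxysterol receptor, had 5.14 and 6.75 FPKM in Gata3(g/g) and 0.992 and 3.03 FPKM in WT (1.74 ± 0.236 SE, adjusted p = 0.000152). Fitted with no block, Gpr183 stood at 0.95 once WT replicate 1 was dropped and at 2.60 once WT replicate 2 was dropped. Ltb, Tmem176a, Tmem176b and Ramp1 did not pass (adjusted p from 0.0952 to 0.836). The cytokines themselves were near 0: Il17a stood at 0 and 0.142 FPKM in Gata3(g/g) and at 0 and 0.073 FPKM in WT, and Il17f and Il22 stayed under 0.15 FPKM in every library.

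Of 17 genes of interferon-gamma-type gamma-delta cells, 4 were tested, 1 rose and 1 fell, set against the same 6.90% (median log2 fold change −0.12). Nkg7, a granule membrane protein, rose, with 96.4 and 75.5 FPKM in Gata3(g/g) and 43.4 and 41.1 FPKM in WT (1.02 ± 0.140 SE, edgeR with the block, adjusted p = 0.000169). Gzma, granzyme A, fell, with 98.3 and 96.1 FPKM in Gata3(g/g), against 485 and 463 FPKM in WT (−2.28 ± 0.136 SE, adjusted p = 1.09e-08). Ifng was read in run 1 almost alone, at 6.71 and 0.219 FPKM in Gata3(g/g) and 8.57 and 0 FPKM in WT, and Cd27 did not pass (−0.18, adjusted p = 0.428). T cell receptor gamma and delta segments were not analysed here, so whether the cells had rearranged them was not measured.

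Markers of other cells were read beside these lists. The 10 markers of natural killer and innate lymphoid cells summed to 76.3 to 97.2 FPKM in Gata3(g/g) and 42.2 to 44.0 FPKM in WT libraries, and 9 of the 10 were under 1 FPKM in all 4, Nkg7 being the exception. Markers of DN4 and double-positive thymocytes summed to 23.6 to 27.2 FPKM in Gata3(g/g) and 15.2 to 18.5 FPKM in WT, and both CD8 chains rose. Cd8b1 had 7.61 and 7.22 FPKM in Gata3(g/g) and 3.63 and 1.11 FPKM in WT (log2 fold change 1.77 ± 0.302 SE, edgeR with the block, adjusted p = 0.00135); fitted with no block it stood at 2.71 once WT replicate 1 was dropped and at 1.05 once WT replicate 2 was dropped. Cd8a had 1.71 and 1.37 FPKM in Gata3(g/g) and 0.674 and 0.592 FPKM in WT (1.28 ± 0.286 SE, adjusted p = 0.011, and 0.0574 by DESeq2 with the block). Like Maf, Cd8a passed the filter of 1 FPKM only through its level in Gata3(g/g) cells. Cd4 stayed under 0.5 FPKM in each library. The summed mast cell and basophil markers, 8.23 to 8.91 FPKM in Gata3(g/g) and 48.7 to 55.6 FPKM in WT, differed through 1 gene, Cpa3 (carboxypeptidase A3). Cpa3 fell, with 2.73 and 1.55 FPKM in Gata3(g/g), against 43.5 and 50 FPKM in WT (−4.44 ± 0.212 SE, edgeR with the block, adjusted p = 8.55e-10). Kit had 5.34 and 6.90 FPKM in Gata3(g/g) and 5.18 and 5.42 FPKM in WT (0.20, adjusted p = 0.46), and the other 6 of the 8 were under 1 FPKM in all 4 libraries, with Fcer1a and Mcpt4 listed at 0. Markers of thymic epithelium and stroma summed to 31.9 to 33.8 FPKM in Gata3(g/g) and 24.5 to 32.6 FPKM in WT. Nearly all of this was Pecam1 (means of 23.3 FPKM in Gata3(g/g) and 18.3 FPKM in WT) and Epcam (9.05 and 9.93 FPKM). The other 5 of the 7 were under 1 FPKM in all 4 libraries. Erythroid markers were high in both libraries of run 2 (up to 588 FPKM in Gata3(g/g) and 460 FPKM in WT) and low in run 1 (2.33 FPKM in Gata3(g/g) and 1.35 FPKM in WT), the run in which Blk and 5830411N06Rik were higher. Of the genes called with the block and named outside the 9, limma with the block called Gzma and Cpa3, and the others with a limma value had adjusted p from 0.0603 (Serpinb1a) to 0.339 (Id2). The part of these cells in the values of the 9 genes was not tested.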

How the data were processed

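Per the submitters' processing notes, TopHat2 2.0.8b, Bowtie2 2.1.0 and Cuffdiff 2.1.1 were used with mm10. The annotation, the read length and any use of strand were not given in the sources used here. The authors deposited, per gene and library, FPKM and estimated counts of fragments, scaled fragments (a coverage-like signal, not used), and a comparison table of log2 fold changes with a test statistic (a score, not used), p-values and q-values. In each library 97.7% to 98.9% of the estimated counts were whole to within 0.01, and rounding made them whole before the tests. Of 23285 genes, 3 with a locus marked too deep were dropped, while 5 values marked as failed stayed in as deposited.

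The 9 genes and all lists were chosen with earlier results of these data known. Genes with a mean of at least 1 FPKM (10224) were tested with edgeR 4.0.16 in R 4.3.3 (quasi-likelihood F test; TMM factors 0.983 to 1.02; two-sided; Benjamini-Hochberg over all tested genes). The SE is the unshrunken log2 fold change over the square root of F. The planned model held genotype alone. The replicate number marks the shared run, and the run difference in Gata3(g/g) and in WT correlated across genes (Pearson 0.754, Spearman 0.758; genes are not independent replicates), so values with the run as a block, which leaves 1 residual degree of freedom, are printed throughout. Its small p-values borrow most of their spread estimate from other genes. Dropping the filter changes that estimate, and p-values of the unfiltered edgeR fit are not on the scale of the filtered one. For Sox13 without the block, the edgeR adjusted p was 0.00678 with no filter and 0.663 with it. Within-run differences are log2 CPM with a prior count of 2. DESeq2 1.42.0 and limma 3.58.1 (pseudocount 1) were alternatives, as were other filters, other scalings and leaving out each library.

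A count of 3 fragments corresponds to 0.112 to 0.209 CPM. The genes named are the 9, their families, the genes of each list that passed with the block, up to 4 abundant ones that did not, and the 3 nearest profiles of each tested gene; a few that fall under this rule are not reported here. GENCODE M21 transcripts served to find shared 50-base stretches.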

Additional observations from a re-analysis of the deposited data

How the results depend on the processing

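With genes under 1 FPKM filtered out, no gene of the 9 was called without the block by edgeR under TMM, median-of-ratios or total scaling, nor under a filter of 5 FPKM, by limma, or with any 1 library left out, a fit that shares the runs unequally between genotypes and assumes that the lone library varies like the others. Calls over all genes and among the 9 were 705 and 5 with edgeR and the block, 88 and 4 with DESeq2, 417 and 5 with DESeq2 and the block, 58 and 4 with edgeR and no filter, and 988 and 6 with no filter and the block. They were 348 and 4 with a 5 FPKM filter and the block, which drops Maf, 674 and 5 with library totals and the block, 18 and 2 with limma and the block, and 42 and 4 with a limma pseudocount of 0.1 and the block. Limma without the block called 5 genes. Leaving out 1 library gave 1 to 11 calls over all genes and 0 of the 9. With library totals and the block, 464 of 674 calls were higher in Gata3(g/g) (68.8%), against 56.6% with TMM, and the median log2 fold change was 0.06 against 0.01. Sox13, Maf, Blk, Cd163l1 and 5830411N06Rik kept their direction under every alternative run: with 1 library left out their log2 fold changes ranged from −2.19 to −1.35, 2.04 to 2.39, 1.09 to 2.78, 2.11 to 2.68 and 1.53 to 3.15. Sox4 changed sign, at −0.01 in run 1 alone and −0.22 to 0.29 with 1 library left out. So did Lyn (−0.19 to 0.80), Id2 (−0.13 to 1.90), Tcf7 (−0.53 to 0.01), Runx1 (−0.12 to 0.31), Bcl11b (−0.03 to 0.21), Tmem176a (−0.28 to 0.39), Ltb (−0.02 to 0.45), Usp49 (−0.21 to 0.32), Lrch1 (−0.22 to 0.27) and Btf3l4 (−0.24 to 0.28). Ifng ranged from −4.27 to 10.13 with 1 library left out, and was 1.95 with DESeq2 and the block and 0.66 with limma, a pseudocount of 0.1 and the block. S100a8, at 0.18 by edgeR without the block, was −0.08 with the block, −0.03 with totals and the block, −0.05 with no filter and the block, −0.06 with a 5 FPKM filter and the block, −2.22 with DESeq2 and the block, −0.23 with limma with or without the block, −1.33 with limma, a pseudocount of 0.1 and the block, and −10.24 to 4.82 with 1 library left out. The cause was not tested. Depth limits Il23r, with at most 6 fragments in a library, and 2 libraries per genotype limit every p.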

Other observations

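Some genes of the families and lists, picked out after their values were seen, were under the filter of 1 FPKM but had higher FPKM in both Gata3(g/g) libraries than in both WT libraries. Il18r1, the IL-18 receptor chain of IL-17-type and interferon-gamma-type cells, had 0.334 and 0.564 FPKM in Gata3(g/g) and 0.0887 and 0.0366 FPKM in WT. These came from 66 and 64 fragments against 14 and 4. In the unfiltered edgeR fit with the block its log2 fold change was 2.56 ± 0.595 (SE, adjusted p = 0.000831). Sox5, a relative of Sox13, had 0.186 and 0.272 FPKM in Gata3(g/g) (69 and 68 fragments) and 0.0549 and 0.158 FPKM in WT (15 and 31 fragments). Its log2 fold change in the same fit was 1.24 ± 0.460 (SE, adjusted p = 0.109). With at most 69 fragments per library, the sizes of these changes are uncertain.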
